A study of Mus musculus with 2 samples.

Results

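Neural stem/progenitor cells (NSPCs) store neutral lipids in lipid droplets (LDs), and PLIN2 (perilipin 2) is a protein of the LD coat. The cells described here are the cultured NSPCs in G1 phase, the gap between a division and DNA synthesis, taken by the phase in the authors' per-cell table, and high PLIN2-GFP cells were compared with low PLIN2-GFP cells among them. They were 80 low and 52 high cells, or 43.4% of all cells that passed the study's filters, beside 87 low and 85 high cells in S or G2/M phase. On plate 1 they were 49 low and 32 high cells, and on plate 2 they were 31 low and 20 high cells. The question was which genes differ between NSPCs with many and few LDs when cells in S and G2/M phase are set aside.

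All cells came from 1 stable line of proliferating NSPCs, grown from the subventricular zone of C57/Bl6 male mice aged 6 to 8 weeks, split at least 5 times, and kept in medium with N2 and 20 ng/ml each of EGF and FGF-2. The line carries PLIN2-GFP from a retrovirus, so low and high cells share the transgene and differ in the strength of its signal. Cells with the 25% lowest and 25% highest GFP signal were sorted alive into 2 plates of 384 wells and sequenced by SORT-seq, a method that counts tagged 3' ends of mRNA in single wells. Low and high cells lay in different rows of wells (0 rows held G1 cells of both), so the row and the category cannot be told apart. The 2 plates are sorts of 1 line, so the tests of genes below measure the spread between plates and not between animals. That spread is estimated largely over many genes.

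G1 cells are cells that have divided and have not begun to copy their DNA, and growth signals in this window decide whether a cell enters S phase. Such cells take up or make lipid, build ribosomes and adjust mitochondrial activity, and LDs buffer fatty acids for membranes, for storage and for oxidation. In NSPCs, *Nes*, *Vim*, *Fabp7*, *Sox9* and *Slc1a3* mark the undifferentiated state.

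The phase comes from the S and G2/M scores, so both scores lay below 0 in these cells by construction, which does not check the label, and 22 of them had a score within 0.05 of 0. The sums of low cells held 413379 and 290021 UMIs (molecules counted once by their tag) on plates 1 and 2, and those of high cells 354021 and 234308. High cells were more deeply covered, with a median of 9244 and 12935 UMIs per cell against 7856 and 9330 in low cells. The ratio of high to low was 1.18 on plate 1 and 1.39 on plate 2. An exact permutation test over the 4 medians, which ignored the plate, gave a two-sided p of 0.667. The smallest value that test can give is 0.333. The 2 groups also fell differently into the 2 clusters of the authors' per-cell table. Cluster 0 held 25 of 32 and 15 of 20 high G1 cells on plates 1 and 2 but 16 of 49 and 12 of 31 low ones (32.7% and 38.7%), so the difference between high and low cells coincides with the difference between clusters, which were drawn from the same genes, and its part in the results below was not tested. The median mitochondrial share was 14.5% and 14.6% in low and 13.2% and 12.8% in high cells. All 8 NSPC markers were tested, with log2 fold changes from -0.17 to 0.44 and 0 calls. Of 7 microglia markers 0 were in the table, and the 3 endothelial and mural markers in the table summed to at most 15.0 CPM in any sum.

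*Plin2* checked the sort at the level of RNA. Its counts were 8 and 8 in low and 32 and 14 in high cells of plates 1 and 2. In CPM, which scales each sum to a common total over the tested genes with TMM factors and is the scale of all levels below unless another is named, these were 21.6 and 30.6 CPM against 96.2 and 62.8 CPM, so both high sums lay above both low sums. The log2 fold change was 1.68 ± 0.40 (SE, n = 2 plates), or 3.20-fold on the linear scale, with an adjusted p of 0.165 by edgeR's quasi-likelihood test, which does not pass the threshold of 0.1. Whether reads of the transgene were counted under *Plin2* was not tested.

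Of 5288 genes tested across G1 cells, 1 was called higher (0.0189%) and 7 were called lower (0.132%) in high PLIN2-GFP cells at an adjusted p under 0.1. At an unadjusted p under 0.05, 3.27% of genes were higher and 4.65% lower. On both plates 1401 genes were higher (26.5%) and 1467 lower (27.7%). All 8 called genes had the same direction on both plates, which is no separate evidence, since the same sums called them. The calls were made with the plate as a block and 1 residual degree of freedom. Without the block edgeR called 0 genes higher (92 at an unadjusted p under 0.05) and 1 lower, which was *Basp1*, and DESeq2 with the block called 0 and 0 (1 and 16 at an unadjusted p under 0.05).

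**Figure D1:**
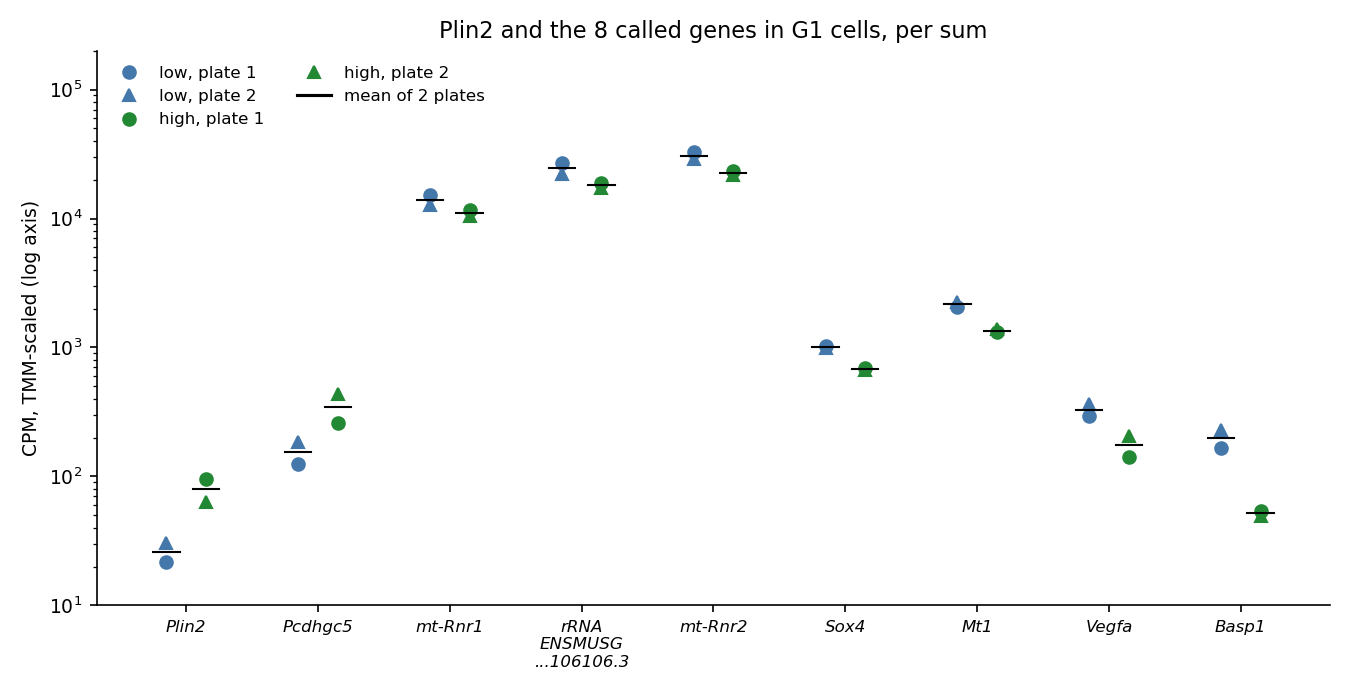
Level of *Plin2* and the 8 called genes in CPM on a log axis, in each sum of G1 cells (circles plate 1, triangles plate 2, blue low and green high PLIN2-GFP, bars the mean of both plates). In all 9 genes the high sums do not overlap the low sums, with *Plin2* and *Pcdhgc5* above and the other 7 below. The 8 genes were called from these same sums and PLIN2-GFP defined the sort, so the lack of overlap is no separate evidence.

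*Mt1* encodes a metallothionein, a small cysteine-rich protein that binds zinc and copper and whose transcription is switched on by metals through short promoter motifs, the metal response elements. Its reference promoter is shown because the gene had one of the 2 smallest p-values in G1 cells and the clearest difference from the cycling cells among the called genes. The 300 bases run from 250 before to 50 after the start of the gene, on the plus strand at chr8:94178839-94179138 (GRCm38.p6, RefSeq), with the core TGCNCNC of the element, where the first N is A or G, in capitals:
Mt1: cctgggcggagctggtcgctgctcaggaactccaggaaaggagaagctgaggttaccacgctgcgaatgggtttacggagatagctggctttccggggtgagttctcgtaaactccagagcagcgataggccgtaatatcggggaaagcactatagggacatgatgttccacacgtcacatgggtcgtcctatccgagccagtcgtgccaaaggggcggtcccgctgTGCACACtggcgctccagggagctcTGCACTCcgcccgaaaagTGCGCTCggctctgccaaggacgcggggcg
The motif was searched on both strands and occurred 3 times. Of 27025 gene symbols with such a promoter, 28.2% held at least 1 and 2.27% at least 3 matches. A match of letters is a description of the sequence and not a site.

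*Mt1* (chr8:94179082-94180327, plus strand, GENCODE M21) measured 2068 and 2251 CPM in low and 1314 and 1381 CPM in high cells. The log2 fold change was -0.68 ± 0.09 (adjusted p = 0.00206, edgeR), or 0.625-fold, and both plates gave close values of -0.65 and -0.70. One low cell held 8.56% of the *Mt1* counts of all low cells. The other members measured were *Mt2*, at a log2 fold change of -0.41 ± 0.26, and *Mt3*, a brain metallothionein, at 0.66 ± 0.51, and neither was called.

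The genes lower in high cells also included ribosomal RNAs. *mt-Rnr2* and *mt-Rnr1* are the large and small ribosomal RNAs of mitochondria, encoded at chrM:1094-2675 and chrM:70-1024. *mt-Rnr2* measured 32679 and 28832 CPM in low and 23183 and 21859 CPM in high cells, a log2 fold change of -0.45 ± 0.05 (adjusted p = 0.00127, edgeR). *mt-Rnr1* measured 15214 and 12682 CPM against 11613 and 10387 CPM, a log2 fold change of -0.34 ± 0.06 (adjusted p = 0.0244, edgeR). The high sums lay below both low sums for each. The call of *mt-Rnr1* held under 7 of 16 alternatives with a test. Among the losses by edgeR were those with scaling by library size only (-0.26, adjusted p = 0.119) and in cells under 20% mitochondrial counts (-0.33, adjusted p = 0.282).

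The gene listed as ENSMUSG00000106106.3, a ribosomal RNA at chr17:39846353-39848827 (minus strand, matched to another version of its ID in GENCODE M21), measured 27140 and 22019 CPM in low and 18999 and 17379 CPM in high cells, with a log2 fold change of -0.43 ± 0.06 (adjusted p = 0.00206, edgeR). Its counts are uncertain, since its locus overlaps 2 annotated lincRNAs, *AY036118* on the same and *Gm42418* on the other strand, and neither is in the count table. The labels name the molecule as polyA RNA, and the mitochondrial share given above, which includes *mt-Rnr1* and *mt-Rnr2*, was lower in high cells too. Its part in the result was not tested.

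*Vegfa* encodes the growth factor that drives blood vessel growth and is a known target of low oxygen. It measured 296.5 and 363.7 CPM in low and 141.3 and 206.3 CPM in high cells, without overlap. The log2 fold change was -0.95 ± 0.18 (adjusted p = 0.0542, edgeR), or 0.519-fold. The call held under 8 of 17 alternatives with a test. Among the losses by edgeR were those in cells thinned to 5000 UMIs (-0.87, adjusted p = 0.134) and in cells under 20% mitochondrial counts (-0.93, adjusted p = 0.213).

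*Basp1* and *Sox4* belong to a list of E proteins, Id proteins and genes of neuronal commitment. *Basp1* encodes a membrane protein of growing axons and measured 167.1 and 229.7 CPM in low and 54.1 and 49.3 CPM in high cells (counts 62 and 60 against 18 and 11). Its log2 fold change of -1.88 ± 0.27 (adjusted p = 0.00338, edgeR), or 0.272-fold, was the largest in size of the 8 called genes. *Sox4*, a transcription factor of neuronal differentiation, measured 1035 and 988 CPM in low and 691 and 673 CPM in high cells. Its log2 fold change was -0.57 ± 0.11 (adjusted p = 0.0576, edgeR), and the call held under 7 of 17 alternatives with a test. Among the losses by edgeR was that without mitochondrial genes and rRNA (-0.56, adjusted p = 0.107). Others were with library size only (-0.49, adjusted p = 0.101) and in cells under 20% mitochondrial counts (-0.55, adjusted p = 0.282).

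Of the 21 genes of that list, 18 were in the table and 11 were tested. Of these 2 were called, both lower, beside 0.132% of all genes, and 7 of 11 were lower on both plates against 27.7% of all genes. The median log2 fold change was -0.31, beside -0.0061 for all genes tested, and -0.54 without the high and -0.20 without the low sum of plate 1. *Tcf4*, an E protein that binds E-box motifs with partners, measured 768 and 846 CPM in low and 718 and 565 CPM in high cells, a log2 fold change of -0.31 ± 0.13 (adjusted p = 0.589, edgeR). Its relative *Tcf12* had -0.69 ± 0.19 and the inhibitor *Id2* -0.93 ± 0.35, and neither was called. *Sox11*, a relative of *Sox4*, had 0.19 ± 0.20.

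Of 6 markers of neuroblasts and neurons 3 were in the table, with 226.4 and 164.6 CPM in low and 189.4 and 130.1 CPM in high cells in sum. Only *Gap43*, a growth cone protein, was tested, at -0.45 ± 0.24 (adjusted p = 0.667, edgeR). Whether a few more committed cells in the low sums have a part in the values of *Basp1* and *Sox4* was not tested. In sums alone, a lower share of such cells and less RNA per cell cannot be told apart. By cell, at least 1 UMI of *Basp1* was in 23 of 49 and 11 of 31 low cells of plates 1 and 2. Among high cells it was in 10 of 32 and 8 of 20, a lower share than in low cells on plate 1 but not on plate 2. On plate 2 a single cell held 26.7% of the *Basp1* counts in the low and 27.3% in the high sum. *Sox4* was in 48 of 49 and 29 of 31 low cells, and in 31 of 32 and 16 of 20 high cells.

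*Pcdhgc5* was the only gene called higher. It is one of 22 gamma-protocadherins, neural adhesion proteins made from a gene cluster on chromosome 18 whose members share their last exons. It measured 46 and 48 counts in low and 87 and 97 counts in high cells, or 153.9 ± 42.2 against 348.3 ± 122.7 CPM (SD, n = 2), without overlap, a log2 fold change of 1.16 ± 0.18 (adjusted p = 0.00755, edgeR), or 2.24-fold. The call was lost in cells thinned to 5000 UMIs (0.87, adjusted p = 0.134) and with equal weight per cell in limma (0.62, adjusted p = 0.255). A single cell held 36.5% and 38.7% of its counts in the high sums of plates 1 and 2. In the low sums a single cell held 25.7% and 37.6%. At least 1 UMI was in 7 of 32 and 12 of 20 high cells, and in 10 of 49 and 9 of 31 low cells. Estimated counts below 1 were left out there. In cells thinned to 5000 UMIs, with fractions rounded at random, it was in 10 of 27 and 12 of 18 high cells. Among thinned low cells it was in 16 of 39 and 13 of 27, a higher share than in high cells on plate 1 but not on plate 2. The 3' reads of the shared exons cannot be given to 1 member, and 9 members had the same rounded counts, 24 and 18 in low and 14 and 12 in high cells. When the 22 genes were summed into 1, an alternative chosen after the data were seen, the counts were 836 and 590 in low and 654 and 475 in high cells. In CPM of all counts, without TMM factors, the log2 ratio of high to low was then -0.13 on plate 1 and -0.0047 on plate 2. The higher value of *Pcdhgc5* was thus not present in the cluster as a whole, and 19 of the 22 members had log2 fold changes below 0.

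The 8 genes of smallest p among those higher on each plate held *Pcdhgc5*, which was called, and 7 that were not. Besides *Plin2* above and *Igfbp2* below these were 5 genes. *Hspa8*, a chaperone of the HSP70 family, measured 353.1 and 222.02 CPM in low and 613.3 and 291.5 CPM in high cells (log2 fold change 0.66 ± 0.16), and the low and high sums overlapped. *Prr5l*, which binds the mTOR complex 2, measured 32.3 and 34.5 CPM against 93.2 and 85.2 CPM (1.42 ± 0.35). *Mlc1*, an astroglial membrane protein, measured 456 and 501 CPM against 697 and 664 CPM (0.52 ± 0.13).

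*Cpe*, a peptide-processing enzyme, had a log2 fold change of 0.53 ± 0.13. *Uqcrc2*, a core subunit of respiratory complex III, had 0.64 ± 0.17. Their adjusted p-values by edgeR ran from 0.165 to 0.241 for these 5. In the lower direction the next was *Marcks*, an actin-binding substrate of protein kinase C, with 2057 and 3162 CPM in low and 1677 and 2148 CPM in high cells and a log2 fold change of -0.42 ± 0.09 (adjusted p = 0.106, edgeR).

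*Igfbp2* encodes a carrier of insulin-like growth factors. It measured 1628 and 1355 CPM in low and 2059 and 1722 CPM in high G1 cells. Both high sums were above both low sums, by a log2 fold change of 0.34 ± 0.09 that was not called (adjusted p = 0.223, edgeR). On a second scale, set over the 8 sums of G1 and cycling cells (those in S and G2/M phase), it measured 1590.03 and 1329.8 CPM in low and 2018.7 and 1701 CPM in high G1 cells, and 869 and 706 CPM in low and 1366 and 1313 CPM in high cycling cells, where the log2 fold change was 0.77. The difference between G1 and cycling cells was -0.43 and was not called (adjusted p = 0.345, edgeR).

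Of 31 genes of the IGF and PI3K-AKT pathway, 17 were tested and 0 called, with a median log2 fold change of 0.19, which was 0.063 without the high sum of plate 1 and 0.046 with equal weight per cell. *Igfbp4*, another carrier, had 0.57 ± 0.18, *Mtor*, the growth kinase downstream of AKT, had 1.43 ± 0.46 from counts of 7 and 6 in low and 15 and 16 in high cells, and the regulatory subunit *Pik3r1* had -0.47 ± 0.21.

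Most cytosolic ribosomal proteins, the protein parts of the machine that makes protein, lay below 0 in high cells, and 0 were called. Of 82 genes 80 were tested, and 77 of them had a log2 fold change below 0. On both plates 70 of 80 were lower, against 27.7% of all genes, and at an unadjusted p under 0.05 40 of 80 were lower, against 4.65% of all genes. The median log2 fold change was -0.21, with -0.25 on plate 1 and -0.20 on plate 2, and it stayed between -0.25 and -0.13 under 19 alternatives. In sum they took 103469 and 108520 CPM in low and 88383 and 94903 CPM in high cells, without overlap. By cell, the median ribosomal share in the authors' table was 10.8% and 10.6% in low and 10.1% and 10.5% in high cells. On plate 2 these medians were close. In cycling cells 72 of 80 lay below 0 with a median of -0.13.

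*Rpl10* had the lowest value, -0.62 ± 0.14, with 590 and 544 CPM in low and 412 and 318 CPM in high cells. *Rpl23a* had -0.53 ± 0.12, *Rps23* -0.49 ± 0.12 and *Rpl14* -0.40 ± 0.11, and the highest was *Rpl17* at 0.11. *Rpl41* and *Rps2*, the members with the highest mean CPM, had -0.25 ± 0.07 and -0.19 ± 0.07. Many of these genes have processed copies elsewhere in the genome, so single values are uncertain.

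Messages of ribosomal proteins are known to start with a C followed by a run of pyrimidines, the 5' terminal oligopyrimidine tract, through which growth signals control their translation. The start sites of 4 genes of the list that have such a tract are shown, as the comparison did not choose members by it. These 4 are not typical of the list, where 13 of 60 genes had it exactly at the annotated start. Each is 30 bases with 12 before the annotated start (GRCm38.p6, RefSeq), and capitals mark the C at the start and the unbroken run of C and T after it. *Rpl14* lies at chr9:120571505-120571534 (plus strand), *Rps18* at chr17:33955648-33955677 (minus), *Rpl28* at chr7:4792953-4792982 (plus) and *Rpl38* at chr11:114668568-114668597 (plus).
Rpl14: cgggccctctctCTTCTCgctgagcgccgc
Rps18: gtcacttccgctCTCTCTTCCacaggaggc
Rpl28: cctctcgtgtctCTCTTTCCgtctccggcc
Rpl38: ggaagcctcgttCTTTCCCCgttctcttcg
A C and at least 4 pyrimidines stood exactly at the annotated start, on the strand of the gene, in 13 of the 60 tested ribosomal protein genes with a promoter in the table (21.7%), and in 3.01% of all 27025 symbols. The abundance of RNA measured here does not measure translation.

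Nuclear subunits of oxidative phosphorylation, the respiratory chain and ATP synthase, lay on the other side of 0. Of 76 tested, 54 had a log2 fold change above 0 and 35 were higher on both plates, against 26.5% of all genes, with a median of 0.10 and 0 calls. Without the high sum of plate 1 the median was -0.01. In sum they took 29396 and 27772 CPM in low and 31913 and 28860 CPM in high cells, and the groups overlapped. *Cox7c* and *Cox6a1*, subunits of complex IV and the members with the highest mean CPM, had -0.01 ± 0.08 and -0.0090 ± 0.097.

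The 13 mitochondrially encoded mRNAs, which code for core subunits of the same complexes, had a median of -0.14, with 11 of 13 below 0, 8 of 13 lower on both plates (27.7% of all genes) and 0 called. The median was -0.086 without the high sum of plate 2, -0.062 with library size only and -0.013 with equal weight per cell. *mt-Co2* had -0.21 ± 0.06 and *mt-Cytb* -0.17 ± 0.05.

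**Figure D2:**
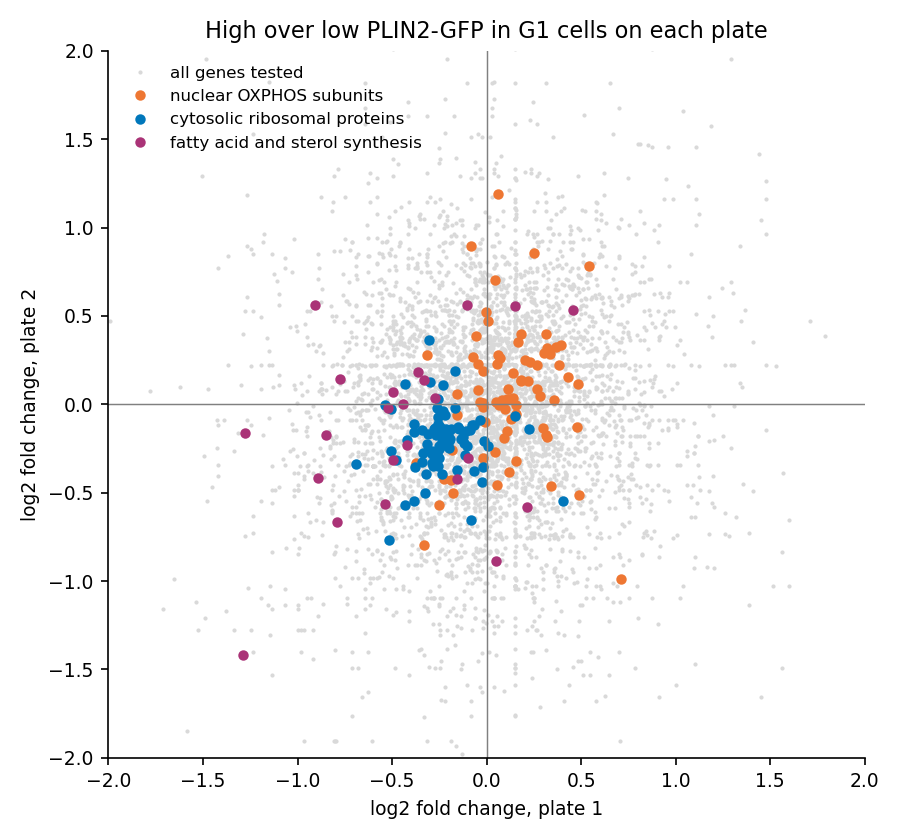
Log2 fold change of high over low PLIN2-GFP in G1 cells on plate 1 (x axis) and plate 2 (y axis), 1 point per gene. Grey points are all genes tested, of which 41 lie beyond 2 or -2 on an axis and are not shown. Of 80 cytosolic ribosomal proteins (blue) 70 are in the lower left of the plot, and of 76 nuclear subunits of oxidative phosphorylation (orange) 35 are in the upper right.

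Genes of fatty acid and sterol synthesis were mostly below 0 in high cells. Of 24 genes 23 were tested, 20 had a log2 fold change below 0, 11 were lower on both plates (27.7% of all genes) and 7 were lower at an unadjusted p under 0.05 (4.65% of all genes), with 0 calls. The median was -0.31, with -0.44 on plate 1 and -0.16 on plate 2, and -0.17 without the high sum of plate 1. In sum they took 8421 and 7683 CPM in low and 6349 and 7185 CPM in high cells, without overlap. In cycling cells 17 of 24 lay below 0 with a median of -0.11.

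The lowest values were those of 2 sterol enzymes. *Sc5d*, a late desaturase of cholesterol synthesis, had -1.37 ± 0.32 (counts 39 and 32 in low, 14 and 10 in high), and *Fdft1*, squalene synthase, had -0.75 ± 0.18. *Hmgcs1*, an early enzyme of the branch, had -0.41 ± 0.11. *Insig1*, which retains the sterol sensor in the endoplasmic reticulum, had -0.07 ± 0.35. Of the fatty acid genes, *Acly*, which makes cytosolic acetyl-CoA, had -0.56 ± 0.32, *Fasn* -0.34 ± 0.16, the desaturase *Scd2* -0.13 ± 0.09 and *Acaca*, acetyl-CoA carboxylase, 0.51 ± 0.39. The regulator *Srebf1* had 0.37 ± 0.32 and *Srebf2* -0.32 ± 0.28.

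Among perilipins and genes of LD turnover 10 of 23 were tested and 0 called, and the median of 0.07 changed sign under 7 of 19 alternatives. *Acsl3*, an acyl-CoA synthetase that acts where LDs form, measured 196.8 and 160.8 CPM in low and 96.2 and 94.2 CPM in high cells, a log2 fold change of -0.93 ± 0.23 (adjusted p = 0.174, edgeR). It stood opposite to *Plin2*. *Soat1*, which esterifies cholesterol for storage, had 0.19 ± 0.30, and the triglyceride lipase *Pnpla2* had 0.34 ± 0.37. Fatty acid oxidation (15 tested, median 0.13 and -0.02 without the high sum of plate 1, with *Acadl* -0.12 ± 0.15 and *Etfa* 0.09 ± 0.19) and fatty acid carriers (5 tested, median 0.05 and -0.03 without the high sum of plate 2, with *Fabp7* -0.04 ± 0.07 and *Dbi* 0.05 ± 0.09) had 0 calls.

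A list of 22 genes known to respond to low oxygen was drawn up after *Vegfa* and *Ero1l* were seen, so its counts are a description and no independent evidence. Of 17 tested, 17 had a log2 fold change below 0 and 13 were lower on both plates (27.7% of all genes), with 1 call (*Vegfa*, beside 0.132% of all genes) and a median of -0.35, which was -0.55 without the low sum of plate 2. *Ero1l*, an oxidase of protein folding, had -1.83 ± 0.39 from counts of 35 and 18 in low and 10 and 3 in high cells (adjusted p = 0.119, edgeR). *Bnip3*, a mitophagy receptor, had -1.41 ± 0.33, *Pdk1*, which inhibits pyruvate dehydrogenase, -1.38 ± 0.33, and the oxygen sensor *Egln1* -0.67 ± 0.18.

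The list shares *Pgk1* and *Aldoa* with glycolysis, of which 15 were tested with a median of -0.14 and 0 calls. *Pgk1* had -0.46 ± 0.11, *Aldoa* -0.35 ± 0.10 and *Pkm* -0.06 ± 0.08, whereas *Ldhb* had 0.50 ± 0.20.

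**Figure D3:**
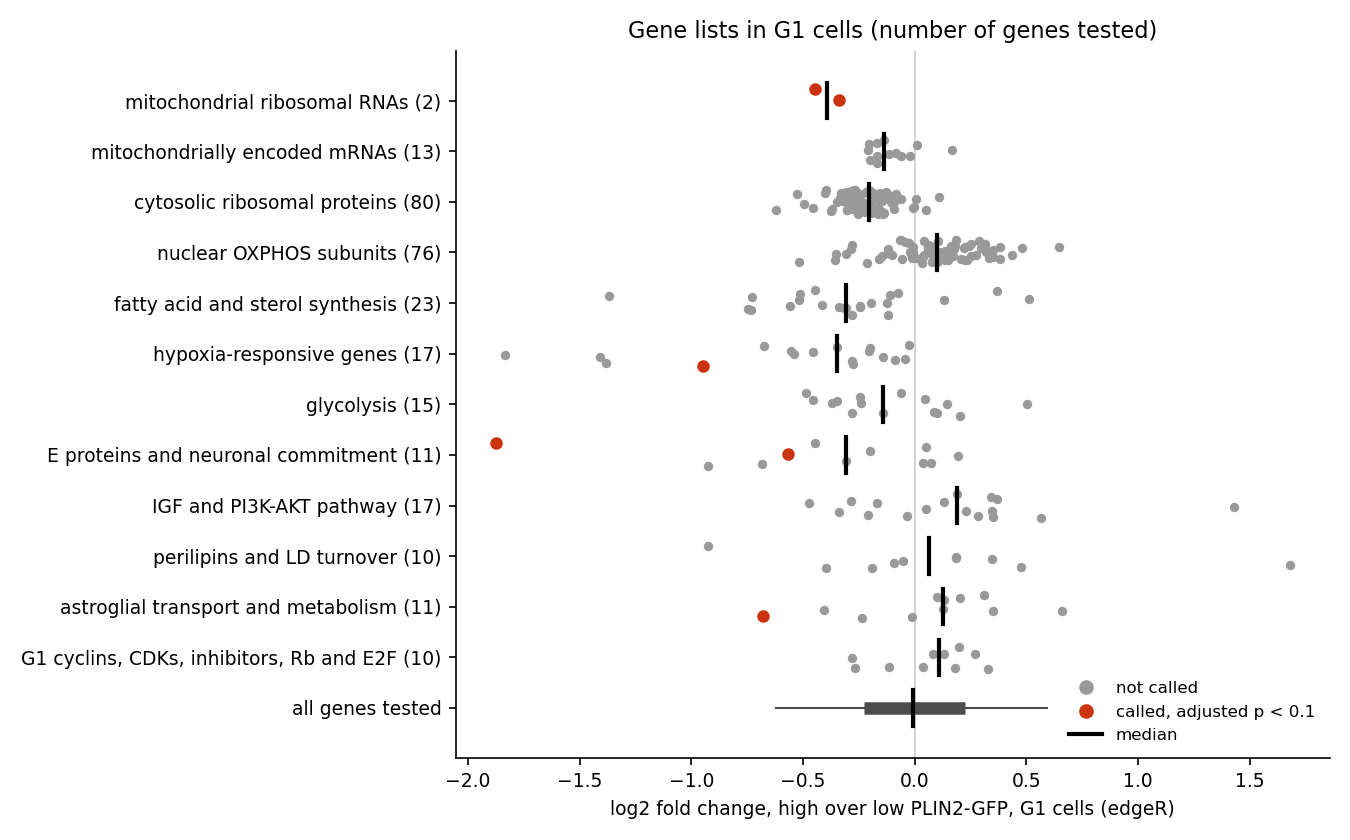
Log2 fold change of high over low PLIN2-GFP in G1 cells for the tested members of 12 gene lists (1 point per gene, red if called, black bar the list's median, number tested in brackets). In the lowest row the thick bar holds the middle 50% and the thin line the middle 90% of all genes tested. The medians run from -0.39 for the mitochondrial ribosomal RNAs to 0.19 for the IGF and PI3K-AKT pathway, whose median depends on the high sum of plate 1 (0.063 without it).

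Other lists fixed for these cells held 0 calls. Of the G1 cyclins, their kinases and inhibitors 10 were tested with a median of 0.11, or -0.02 with high plate 1 or low plate 2 left out, where *Ccnd2* had 0.20 ± 0.08 and *Cdk4* -0.11 ± 0.11. The S phase genes of the phase score (14 tested, *Pcna* 0.07 ± 0.21, *Rrm1* 0.14 ± 0.21) had a median of 0.11, with 0.27 on plate 1 and -0.33 on plate 2 and a change of sign under 6 of 19 alternatives. The G2/M genes (23 tested, *Cbx5* -0.19 ± 0.13, *Anp32e* 0.23 ± 0.19) had one of -0.12, which changed sign under 2 of 19. These lists chose the cells and carry no test of phase. The histones *Hist1h2ap* (0.24 ± 0.23) and *Hist1h2ao* (0.21 ± 0.23) are near-identical copies with uncertain counts.

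The Notch pathway (9 tested, median -0.06 with a change of sign under 7 of 19 alternatives, *Hes6* 0.18 ± 0.19, *Lfng* 0.14 ± 0.18), the glutathione, thioredoxin and antioxidant genes (23 tested, median 0.19, or -0.00024 without the high sum of plate 1 and 0.026 without that of plate 2, *Ftl1* -0.15 ± 0.09, *Txn1* 0.22 ± 0.09) and the immediate early and stress genes (10 tested, median 0.16, or -0.0037 in thinned cells, *Hsp90aa1* 0.17 ± 0.12, *Fos* -0.33 ± 0.14) also held 0 calls. Of the NSPC markers, *Vim* had -0.13 ± 0.08, *Nes* 0.23 ± 0.17 and *Hes1*, a Notch target, -0.13 ± 0.20.

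The astroglial list had 11 genes tested, with *Mt1* as its single call (lower, beside 0.132% of all genes). Its median was 0.13, which was -0.13 without the high sum of plate 1. The astrocyte markers *Slc1a2* (-0.24 ± 0.26) and *Aldh1l1* (0.13 ± 0.29) and the oligodendrocyte lineage factors *Olig1* (0.14 ± 0.08) and *Olig2* (0.08 ± 0.10) were not called, and the 4 ependymal markers in the table were too low to be tested.

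To see which differences were particular to G1, the high-low difference in G1 cells was compared with that in cycling cells of the same plates. The model held all 8 sums, with each combination of plate and class (G1 or cycling) as its own block. Levels are on the scale of these sums. With the plate instead as an additive block shared by both classes, 2 of the calls below remained, *Gadd45g* and *Tub*. The other 7 then had adjusted p-values from 0.242 to 0.718 by edgeR. Of 6935 genes tested, 9 were called (0.13%), 3 with a more positive and 6 with a more negative difference in G1. In the cycling cells themselves 81 genes were called higher (1.17%) and 59 lower (0.851%). Of the 8 genes called in G1 cells, 5 were also called in cycling cells.

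Of the 9, 2 were genes called in G1. *Mt1* was at 2019.1 and 2208.8 CPM in low and 1288 and 1364 CPM in high G1 cells, and at 1593 and 958 CPM in low and 1298 and 1155 CPM in high cycling cells. The log2 fold change in cycling cells was -0.02, and the difference between the classes was -0.65 ± 0.13 (adjusted p = 0.00358, edgeR). *Vegfa* had log2 fold changes of -0.94 in G1 and 0.22 in cycling cells in this model, a difference of -1.16 ± 0.27 (adjusted p = 0.0391, edgeR). For both genes, low G1 cells held the highest 2 of the 8 sums.

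In other genes the difference was larger in cycling cells. *Slc1a3*, a glutamate transporter of radial glia and astrocytes, was at 1548 and 1852 CPM in low and 1748 and 1603 CPM in high G1 cells, but at 994 and 1040 CPM in low and 1380 and 1553 CPM in high cycling cells. The difference between the classes was -0.53 ± 0.13 (adjusted p = 0.0453, edgeR). *Slc4a4*, a bicarbonate transporter, had -0.88 ± 0.21 (adjusted p = 0.0475) and *Itgb5*, an integrin subunit, -2.26 ± 0.54 (adjusted p = 0.0391), with the low cycling sums lowest in each.

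*Gadd45g*, a stress and growth arrest gene, had a log2 fold change of -1.25 in cycling cells and 0.45 in G1 cells, with a difference of 1.70 ± 0.31 (adjusted p = 0.000519, edgeR). Its low G1 sums were far apart, at 194.8 and 63.9 CPM. *Pcdhgc3* had 1.64 in cycling and -0.0014 in G1 cells, a difference of -1.64 ± 0.28 (adjusted p = 0.000141, edgeR). In CPM of all counts, its log2 ratio of high to low on plate 1 was 0.45 in G1 and 0.42 in cycling cells. On plate 2 it was -0.93 in G1 and 2.89 in cycling cells, so the difference was seen on plate 2 alone. The counts of *Pcdhgc3* also share exons with the cluster described above. *Gm45713* overlaps *Rpl13a* on the same strand and had a difference of 1.18 ± 0.26, so its counts are uncertain too. *Tub* had 4.96 ± 1.11 from counts of 4 and 0 in low and 20 and 3 in high G1 cells, and 11 and 8 against 2 and 3 in cycling cells. Against G2/M cells alone the contrast of *Mt1* was not called (-0.39, adjusted p = 0.799), nor was that of *Vegfa* (-0.76, adjusted p = 0.957). In cells thinned to 5000 UMIs 0 of 3853 genes were called for this contrast by edgeR, and 4.80% had an unadjusted p under 0.05.

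**Figure D4:**
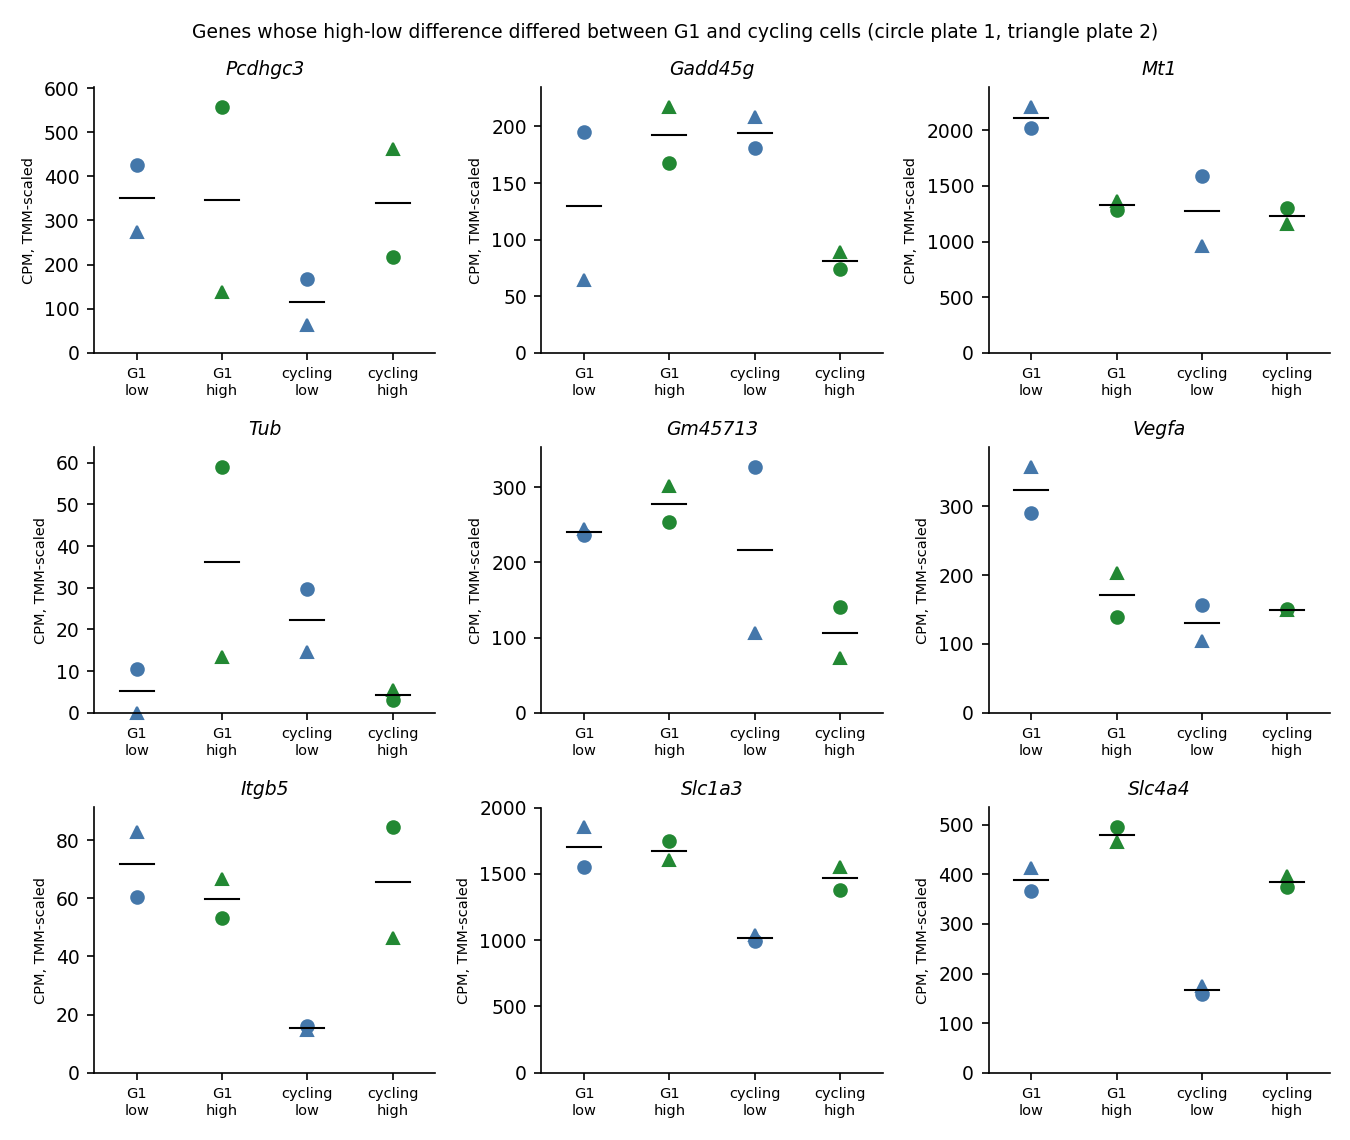
Level in CPM of the 9 genes whose difference between high and low PLIN2-GFP differed between G1 and cycling cells, in each of 8 sums (circles plate 1, triangles plate 2, blue low and green high, bars the mean of both plates, axes from 0). *Mt1* and *Vegfa* are highest in the low G1 sums, and *Slc1a3*, *Slc4a4* and *Itgb5* are lowest in the low cycling sums.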

How the data were processed

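UMI counts of single NSPCs from 2 plates were analysed. The authors assigned reads to GRCm38 with Salmon and alevin (versions not given in the sources used here) and deposited estimated counts (expected counts) for 15046 genes, without normalization. They also deposited a per-cell table with the total count, the count of genes, a fraction and a percent of mitochondrial counts, a doublet score, and S and G2/M scores on a score scale, with the phase. The count table names no cells, so its columns were matched to cells by equal totals and numbers of genes, which left 0 columns unmatched. The study kept cells under 20% mitochondrial counts, but 5 G1 cells were at or above 20%. Between the plates 10 cell barcodes were shared by G1 cells. No doublets were removed here (0 G1 cells were marked as doublets).

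For each plate and category, counts of G1 cells were added up and rounded. TMM factors, filterByExpr, a plate block and Benjamini-Hochberg adjustment were used in edgeR 4.0.16 (R 4.3.3). Both categories shared each plate, and deviations of same-numbered sums correlated at r = 0.229 over 5288 genes. On simulated data of this comparison, 13 of 65 genes changed 1.5-fold, 37 of 61 changed 2-fold and 63 of 64 changed 4-fold were called. There were 10 false calls among 5279 genes. The simulation gave all genes 1 common dispersion (0.0041) and changed only genes above a minimum total count. It thus does not measure power for genes with fewer counts or with counts held by few cells. DESeq2 1.42.0 and limma 3.58.1 were alternatives. Positions are from GENCODE M21.

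The cells and gene lists were chosen with earlier results of these data known. Named were *Plin2*, *Igfbp2*, *Tcf4*, *Fabp7*, *Vim*, *Nes* and *Hes1*, the 8 genes of smallest p in each direction, the called or 2 highest members of each list, and the 5 genes of smallest p in the contrast with cycling cells. Further members of a list, and the other called genes of the contrast, were named after their values were seen.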

Additional observations from a re-analysis of the deposited data

Results flagged for a closer look

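The difference between high and low PLIN2-GFP cells differed between G1 and cycling cells for 9 genes by the contrast of edgeR's quasi-likelihood test. On the log2 scale, as G1 minus cycling, it was -1.64 for *Pcdhgc3*, 1.70 for *Gadd45g*, -0.65 for *Mt1*, 4.96 for *Tub*, 1.18 for *Gm45713*, -1.16 for *Vegfa*, -2.26 for *Itgb5*, -0.53 for *Slc1a3* and -0.88 for *Slc4a4*. *Tub* rests on counts of at most 20 in a sum, and the difference of *Pcdhgc3* was seen on plate 2 alone. Groups of 2 plates do not allow a search for outlying sums.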

How the results depend on the processing

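The calls rest on the replicate block and on 4 sums. Counts of genes called higher and lower were 1 and 7. They were 0 and 1 with no replicate block, 0 and 0 with DESeq2, 1 and 13 with limma voom, 6 and 6 with library size only, 6 and 29 with no filter on low counts, 1 and 3 with a stricter filter, 1 and 3 without mitochondrial genes and rRNA, 8 and 15 in cells thinned to 5000 UMIs, 4 and 24 with a stricter G1 class, 13 and 47 with phases scored again, 17 and 20 with equal weight per cell in limma, and 1 and 4 in cells under 20% mitochondrial counts, which was chosen after seeing the data. At an unadjusted p under 0.05, DESeq2 had 1 gene higher and 16 lower. Leaving out 1 sum gave 0 to 1 genes higher and 0 to 2 lower, without the block, as the lone sum is assumed to vary like the others. With high plate 1 or low plate 2 left out, 0 of the 8 calls remained. With high plate 2 or low plate 1 left out, *Basp1* alone remained. Of the contrast with cycling cells, there were 9 calls. There were 2 with an additive plate block, both among the 9, 0 in thinned cells, 7 against S cells alone, of which 4 were among the 9, and 3 against G2/M cells alone, of which 1 was. The alternative of cells under 10% mitochondrial counts was not run, since 3 G1 cells were left. Low counts limit genes such as *Plin2* and *Tub*.

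None of the 8 called genes changed direction under these alternatives. Of 74 values, those of the genes named by the rule, of the 9 genes of the contrast and of *Mt2*, *Mt3* and *Ero1l*, 27 did. With library size only these were *Fabp7* (0.039), *Pkm* (0.014), *Cox7c* (0.064), *Cox6a1* (0.066), *Slc1a3* (0.063) and *Pcdhgc3* (0.058). In thinned cells they were *Fabp7* (0.034), *Hes1* (0.30), *Acadl* (0.059), *Etfa* (-0.23), *Cox6a1* (0.31), *Cdk4* (0.0026), *Rrm1* (-0.26), *Hes6* (-0.12), *Aldh1l1* (-0.045), *Olig2* (-0.022), *Pcdhgc3* (0.23) and *Gadd45g* (-0.015). With a stricter G1 class they were *Fabp7* (0.037), *Cox7c* (0.052), *Pcna* (-0.16), *Hist1h2ap* (-0.26), *Hist1h2ao* (-0.33), *Aldh1l1* (-0.027), *Slc1a3* (0.027) and *Pcdhgc3* (0.038). With equal weight per cell they were *Fabp7* (0.25), *Hes1* (0.051), *Scd2* (0.025), *Pkm* (0.0098), *mt-Cytb* (0.021), *Cox7c* (0.14), *Cox6a1* (0.11), *Slc1a3* (0.18) and *Cdk4* (0.0020). With voom they were *Cox6a1* (0.0011) and *Pcdhgc3* (0.0013), with RLE *Cox6a1* (0.00092), with phases scored again *Pcna* (-0.015), *Hist1h2ap* (-0.022), *Hist1h2ao* (-0.063) and *Slc1a3* (0.015), in cells under 20% mitochondrial counts *Slc1a3* (0.0023), and without the block *Pcdhgc3* (0.025). Leaving out 1 sum gave *Nes* -0.062 to 0.56, *Hes1* -0.44 to 0.077, *Hspa8* -0.00071 to 1.07, *Soat1* -0.38 to 0.52, *Acadl* -0.37 to 0.077, *Etfa* -0.11 to 0.25, *Pkm* -0.13 to 0.028, *Cox7c* -0.15 to 0.14, *Cox6a1* -0.17 to 0.13, *Ccnd2* -0.055 to 0.42, *Cdk4* -0.22 to 0.020, *Pcna* -0.25 to 0.27, *Rrm1* -0.046 to 0.31, *Cbx5* -0.47 to 0.10, *Anp32e* -0.22 to 0.52, *Slc1a2* -0.42 to 0.074, *Slc1a3* -0.14 to 0.11, *Olig2* -0.16 to 0.28, *Pcdhgc3* -1.38 to 0.65 and *Gadd45g* -0.041 to 1.57. The cause was not tested.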
